A study of Drosophila melanogaster with 8 samples.

Results

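The 56 genes described here had at least 5 times less RNA in testes of Drosophila males with reduced Tgs1 than in wild-type testes. They were chosen from the values themselves. A gene entered if it had at least 5 FPKM in both wild-type testis libraries and if both mutant values were at most 0.2 times the lower wild-type value. FPKM is the number of sequenced fragments per length of transcript and per amount of mapped fragments, so levels of genes of different length can be set side by side. These limits were met by 97 of the 15612 genes listed for testes. From these, 38 noncoding genes with a CR number and 3 loci on the Y chromosome were left out, and no heat shock, accessory gland, seminal fluid or Mst gene was among them. A total of 7525 genes, chosen with the same exclusions, had at least 5 FPKM in both wild-type testis libraries and serve as the background below. Because the testis values chose the genes, their testis values are given as a description, with no test.

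Tgs1 is the methyltransferase that turns the cap of small nuclear RNAs into a trimethylguanosine cap, and these RNAs form the core of the spliceosome. In Drosophila the tgs1 reading frame shares a bicistronic transcript with moi, a gene for a telomere-capping protein. In the testis, germline cells divide, enter a long spermatocyte stage in which a large part of the genome is transcribed for later use, pass through meiosis and then reshape into sperm, so that many genes are active in no other tissue.

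Poly(A) RNA was sequenced from adult testes and from whole second instar larvae raised at 25 °C, with 2 libraries in each of 4 groups. The mutant testes, named tgs1hypo, are labelled bam>moi; tgs1hypo, and the wild-type (WT) testes are labelled bam>tgs1; tgs1hypo. By these labels both testis groups carry the hypomorphic tgs1hypo combination of alleles, and differ in whether bam-gal4, a driver active in early male germ cells, expresses a moi or a tgs1 transgene. Cells other than the germline are therefore mutant in both groups if the labels hold. The mutant larvae are labelled tgs1 2-3, a frameshift allele made with Cas9, and the WT larvae tgs1 2-4, an allele from the same experiment that leaves both reading frames intact. Both groups of larvae carry an edited chromosome. Each library was made from many pooled animals.

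Depth is not given, because the values are not counts. Among the lowest values of each table the commonest ratio between libraries, up to factors of 2, lay between 1 and 1.06 in both tissues, and the values do not show the number of reads. Replicates correlated across genes at r = 0.990 in tgs1hypo testes and 0.994 in WT testes, and at 0.953 in tgs1 2-3 larvae and 0.929 in WT larvae, on the log2(FPKM + 1) scale; genes are not independent replicates. The listed row for moi, which lies on the shared transcript at 3R:18255530-18257677 in coordinates of genome Release 6, had 3.81 and 2.71 FPKM in tgs1hypo testes, against 10.1 and 11.4 FPKM in WT testes. It was thus lower in the libraries whose label names the moi transgene. Which part of the shared transcript the row counts is not given, so it does not check the genotypes, and the names tgs1hypo and WT are those of the sample titles. In larvae it had 6.41 and 6.85 FPKM in tgs1 2-3 larvae, against 4.64 and 7.42 FPKM in WT larvae, and a frameshift need not remove RNA. Spermatid markers were abundant in all testis libraries, and 0 of the 47 that were found lay under 1 FPKM in all 4 libraries.

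The genes spanned a wide range of levels. Their mean levels in tgs1hypo testes lay between 0.0613 and 65.4 FPKM with a median of 2.58 FPKM, and in WT testes between 5.69 and 612 FPKM with a median of 29.2 FPKM. The median ratio of the tgs1hypo mean to the WT mean was 0.120, and it was 1.12 over the 7525 background genes. In 17 of the 56 genes the tgs1hypo mean was under 0.1 times the WT mean. Both tgs1hypo values were under 1 FPKM in 10 genes, while in 20 genes both were still at 5 FPKM or more. All 56 genes together took 0.0552% and 0.0532% of the summed FPKM of the tgs1hypo libraries, against 0.436% and 0.442% of the WT libraries. Over the 11343 genes whose testis mean reached 1 FPKM, limma called 7.11% lower and 3.54% higher (adjusted p under 0.05 and a log2 change of at least 1 in size). In 32.6% of them both tgs1hypo values lay below both WT values, and in 47.7% both lay above. The choice of the 56 genes places all of them below WT, so nothing is read from their being among the lower genes. In bulk tissue, fewer cells of a type and less RNA per cell cannot be told apart.

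**Figure D1:**
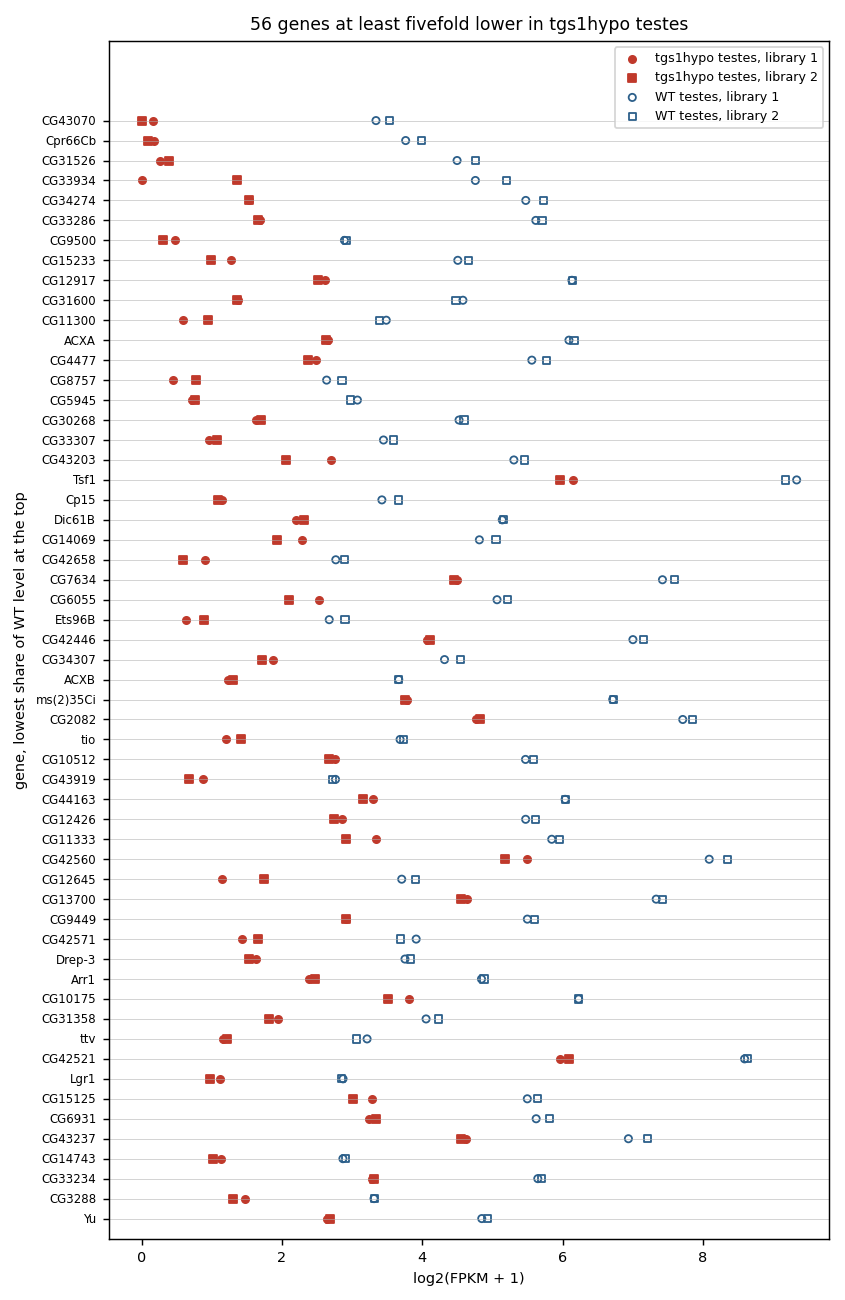
Level of each of the 56 genes in each testis library, as log2(FPKM + 1). Filled red symbols are tgs1hypo testes and open blue symbols WT testes (circle, library 1; square, library 2), with one gene per row in order of the ratio of the means, and the groups are apart in every row because that is how the genes were chosen.

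Of the 56 genes 54 code for protein and 2 are noncoding RNAs. Only 14 of the coding genes have a name of their own. The other 40 are known by a CG number, and their products are not described here.

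Among the named genes, ACXA and ACXB belong to the ACX family of adenylyl cyclases, membrane enzymes that make the second messenger cyclic AMP from ATP. ACXA had 5.30 and 5.20 FPKM in tgs1hypo testes, against 67.2 and 70.7 FPKM in WT testes, and was 13.1-fold lower. ACXB had 1.34 and 1.47 FPKM in tgs1hypo testes, against 11.7 and 11.6 FPKM in WT testes, and was 8.31-fold lower. The replicates of each group nearly coincided for both genes. They stand next to each other on chromosome arm 2L and are part of a row of ACX genes that is taken up again below.

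Dic61B codes for a dynein intermediate chain, a subunit that links the motor to its cargo or to the axoneme. It had 3.58 and 3.97 FPKM in tgs1hypo testes, against 34.3 and 34.8 FPKM in WT testes, and was 9.14-fold lower. The locus ms(2)35Ci is named for male sterility. It had 12.8 and 12.4 FPKM in tgs1hypo testes, against 104 and 105 FPKM in WT testes, and was 8.27-fold lower. It was also the only one of the 56 on the list of 52 spermatid differentiation markers. Of the 47 listed markers that were tested, 9 were called lower and 0 higher, and their median log2 change was −0.19 against 0.11 over all tested genes. The 9 include ms(2)35Ci, whose call was fixed by the choice of the 56 genes. The lists for other germline stages were not lower as a whole, though single genes in them were. Of 18 meiotic arrest genes, which act in spermatocytes, 4 were called higher (twe, Taf12L, comr and nht) and 0 lower, with a median of 0.31. In the same list can, sa and bol were lower in both tgs1hypo libraries without being called. The can gene had 10.7 and 9.67 FPKM in tgs1hypo testes, against 20.1 and 19.9 FPKM in WT testes. Of 11 premeiotic germline genes 0 were called higher and 1 lower (esg), with a median of 0.23. The part of these shifts in the values of the 56 genes was not tested.

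Both transcription factors in the group were weakly expressed. The tio gene, which codes for the zinc finger protein tiptop of the teashirt family, had 1.30 and 1.66 FPKM in tgs1hypo testes, against 11.9 and 12.3 FPKM in WT testes. Ets96B, a factor with an ETS DNA-binding domain, had 0.556 and 0.851 FPKM in tgs1hypo testes, against 5.38 and 6.46 FPKM in WT testes. The first was 8.18-fold lower and the second 8.42-fold lower.

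Several genes are best known for products outside the germline. Tsf1, the secreted iron-binding protein transferrin, was the most abundant of the 56, with 69.6 and 61.2 FPKM in tgs1hypo testes, against 646 and 579 FPKM in WT testes, and was 9.36-fold lower. Cpr66Cb, a cuticle protein, had 0.127 and 0.0668 FPKM in tgs1hypo testes, against 12.6 and 14.9 FPKM in WT testes, and was 142-fold lower. Cp15, which codes for a protein of the eggshell, had 1.20 and 1.12 FPKM in tgs1hypo testes, against 9.74 and 11.7 FPKM in WT testes. The groups were thus far apart for a gene of hemolymph, one of cuticle and one of the ovarian follicle. CG5945, now named Jhbp13 after the juvenile hormone binding proteins, had 0.642 and 0.697 FPKM in tgs1hypo testes, against 7.43 and 6.86 FPKM in WT testes.

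Other cell types could be present in a dissected testis. The sums of their markers differed between the groups by less than the factor of 5 that chose the 56 genes. The 28 accessory gland markers that were found summed to 7430 and 7545 FPKM in tgs1hypo testes, against 10459 and 10277 FPKM in WT testes, and of the 27 tested 3 were called lower and 1 higher. The 10 muscle markers summed to 160 and 181 FPKM in tgs1hypo testes, against 328 and 306 FPKM in WT testes, with 2 of 8 called lower. The 6 markers found for ejaculatory duct and bulb summed to 807 and 942 FPKM in tgs1hypo testes, against 1423 and 1672 FPKM in WT testes, with 0 of 4 called. The 8 fat body markers were near the bottom of the range in all libraries, summing to 8.28 and 10.4 FPKM in tgs1hypo testes, against 6.60 and 6.17 FPKM in WT testes, and 5 of them were under 1 FPKM in all 4. The median log2 change was −0.62 for accessory gland, −0.81 for ejaculatory duct and bulb and −0.76 for muscle. It was −0.19 for the spermatid markers and 0.11 over all tested genes. For the other lists it was −0.46 (gut, 2 tested), −0.14 (cyst and hub, 8), 0.15 (fat body, 2) and 0.645 (hemocyte, 3, with Pxn called higher). No marker of these lists was at 0 in all 4 libraries, and their part in the loss of the 56 genes was not tested.

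The remaining named genes act in signalling, in the extracellular matrix or in cell death. Arr1, an arrestin that binds activated rhodopsin in photoreceptors, had 4.21 and 4.54 FPKM in tgs1hypo testes, against 27.7 and 28.4 FPKM in WT testes. Lgr1, a receptor with leucine-rich repeats of the kind that binds glycoprotein hormones, had 1.16 and 0.958 FPKM in tgs1hypo testes, against 6.31 and 6.20 FPKM in WT testes. Both were about as far below WT as the gene for ttv, which extends heparan sulfate chains and is the counterpart of human EXT1. The ttv gene had 1.23 and 1.33 FPKM in tgs1hypo testes, against 8.27 and 7.39 FPKM in WT testes. Drep-3, one of the Drosophila relatives of DNA fragmentation factor, had 2.09 and 1.89 FPKM in tgs1hypo testes, against 12.5 and 13.3 FPKM in WT testes. The folds of these 4 genes lay between 5.90 for Lgr1 and 6.47 for Drep-3.

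Apart from Cpr66Cb, the lowest ratios were those of genes without a name of their own. CG43070 had 0.123 FPKM in one tgs1hypo library and was listed at 0 in the other, against 9.13 and 10.6 FPKM in WT testes. CG33934 was listed at 0 in tgs1hypo library 1 and had 1.57 FPKM in library 2, against 26.0 and 35.8 FPKM in WT testes. These were the only 2 of the 56 with a 0 in a mutant library, and the spread between the mutant replicates of CG33934 was wide. CG33934 also overlaps an exon of Indy-2 on the same strand, and overlapping genes can share reads. Indy-2 had 111 and 110 FPKM in tgs1hypo testes, against 288 and 309 FPKM in WT testes. How reads were divided between the 2 genes was not tested. CG34274 had 1.87 and 1.89 FPKM in tgs1hypo testes, against 43.5 and 52.1 FPKM in WT testes, and was 25.4-fold lower. CG33286 had 2.22 and 2.17 FPKM in tgs1hypo testes, against 48.1 and 51.2 FPKM in WT testes, and was 22.6-fold lower. In contrast to the genes at the floor, these kept a measurable level that agreed closely between the mutant libraries. CG9500, CG15233, CG12917 and CG31600 followed, with tgs1hypo means between 4.75% of the WT mean for CG9500 and 7.14% for CG31600.

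The noncoding RNAs stood at opposite ends of the group. CG31526, since reclassified as a long noncoding RNA on 3R, had 0.195 and 0.309 FPKM in tgs1hypo testes, against 21.6 and 26.1 FPKM in WT testes, and was 94.7-fold lower. Yu, a long noncoding RNA on 2R, had 5.21 and 5.42 FPKM in tgs1hypo testes, against 27.8 and 29.5 FPKM in WT testes, and its 5.39-fold difference was the smallest of the 56.

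A total of 9 genes had a WT mean of 100 FPKM or more, among them Tsf1 and ms(2)35Ci. CG42521 had 61.3 and 67.2 FPKM in tgs1hypo testes, against 386 and 398 FPKM in WT testes. CG42560 had 44.1 and 35.4 FPKM in tgs1hypo testes, against 272 and 326 FPKM in WT testes. CG2082 had 26.1 and 27.4 FPKM in tgs1hypo testes, against 209 and 230 FPKM in WT testes. Each of these abundant transcripts still had over 20 FPKM in both tgs1hypo libraries. The others were CG7634, CG13700, CG42446 and CG43237, whose folds ran between 5.83 for CG43237 and 8.56 for CG7634. Next in level came CG10175, which had 13.1 and 10.4 FPKM in tgs1hypo testes, against 74.0 and 73.9 FPKM in WT testes.

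The limit of 0.2 falls in a continuous range of values. The higher tgs1hypo value was 0.196 times the lower WT value for CG12645, 0.198 times for CG3288 and 0.199 times for CG15125, just inside the limit. Just outside it CG31459, CG43192 and Ir75d had 0.201 times the lower WT value. CG31459 had 34.8 and 36.1 FPKM in tgs1hypo testes, against 180 and 195 FPKM in WT testes, so a gene as abundant and nearly as reduced as the members is not counted among them.

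In structure the coding genes were shorter and more often spliced than the background. Their median transcript length was 1127.5 bases against 1680 bases for the background genes, and their median number of introns 3 against 2. Only 2 of the 54, CG11300 and CG14069, have no annotated intron (3.70%), against 15.8% of the coding background genes. Of the 241 introns in the other 52 genes 181 are at most 80 bases long (75.1%), against 57.6% in the background. The shortest intron of a gene had a median of 55.5 bases against 59 bases, and 46 of the 52 intron-containing genes (88.5%) have at least 1 intron of at most 80 bases, against 85.1% of the intron-containing background genes. Counted over all coding genes, intronless ones included, these shares were 85.2% of the 54 and 71.6% of 7435 background genes. Introns were those of 1 annotated transcript per gene, and no test was made of these differences.

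To show what such introns look like in genes named above, the sequences at both ends of some of them are given here, 5′ to 3′ on the gene's strand. They come from a list of introns that the study selected from these same testis libraries and that could be read only in part, so they illustrate the genes and are not evidence on how introns were chosen. Of the 41 introns listed for 20 of the 56 genes, all stand in the reference annotation. All of them lie on 2L, 3L or 3R. Listed introns elsewhere in the genome were left out here by choice, so their absence does not show that the study's list lacks them. Because of this choice, and because the list was read only in part, 20 is not the number of the 56 genes in the study's full list. In the 5′ ends the last 3 exon bases are in lower case and the first 6 intron bases in capitals, and in the 3′ ends the last 2 intron bases are in capitals.
ACXA, 60 bases, 2L:12923706-12923765, plus strand, 5′ end: ttaGTGAGT
ACXA, the same intron, 3′ end: atttttttgtatgcccaaAGatg
ACXB, 47 bases, 2L:12917000-12917046, plus strand, 5′ end: aagGTGAAA
ACXB, the same intron, 3′ end: acttaatggtttccttgcAGgcc
ms(2)35Ci, 57 bases, 2L:15292679-15292735, plus strand, 5′ end: cacGTATGT
ms(2)35Ci, the same intron, 3′ end: gaaattccttctgaactcAGaat
Arr1, 60 bases, 2L:18080087-18080146, plus strand, 5′ end: aagGTAATA
Arr1, the same intron, 3′ end: aggcaatcaattatttacAGcca
CG33286, 58 bases, 3L:20973868-20973925, minus strand, 5′ end: ggaGTCTGT
CG33286, the same intron, 3′ end: accacctttgtatgccctAGatc
CG33934, 57 bases, 3R:20046082-20046138, plus strand, 5′ end: ttgGCAAGT
CG33934, the same intron, 3′ end: tatcttattcctaacctcAGgca
Dic61B, 42 and 68 bases, 3L:152299-152340 and 3L:152273-152340, minus strand, shared 5′ end: aaaGTAAGT
Dic61B, 3′ end of the 42-base intron: aatttgcacttcttacatAGaac
Dic61B, 3′ end of the 68-base intron: gttccccacgcgtcaaaaAGcgg

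The usual start of a Drosophila intron reads GTAAGT or GTGAGT. Of the 7 starts shown, those of Dic61B and ACXA have these letters, and the other 5 depart from them at 1 or more positions. The 7 were picked from those listed, and no share over all introns was counted. The other listed intron of CG33286 starts with GTGAGT. Among the other listed introns of CG33934, some start with GTAAGT or GTGAGT and some do not. The CG33934 intron begins with GC, a rare but known variant, and was the only one of the 41 not to begin with GT. The introns of Dic61B share a start and end at alternative positions, so that 1 of them is nested in the other.

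The 56 genes were spread over the major chromosome arms. There were 12 on 2L, 14 on 2R, 15 on 3L, 13 on 3R and 2 on X, Tsf1 and CG12645. The X thus held 3.57% of these genes and 15.4% of the background genes. No test was made of this share.

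Few of the genes lay next to each other. Within 10 kb of another member there were only 4 genes, in 2 pairs. ACXB and ACXA are 83 bases apart on the same strand. CG43919 lies inside ttv on the opposite strand and is listed in the testis table under the same locus, and a library kit that does not mark strand cannot tell their reads apart where they overlap. CG43919 had 0.831 and 0.597 FPKM in tgs1hypo testes, against 5.79 and 5.59 FPKM in WT testes, and ttv, given above, was lower by a similar factor. In all 23 of the 56 genes (41.1%) shared a listed locus with another gene, against 46.9% of the background genes, and 17 overlapped an exon of another gene.

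The row of ACX genes showed how neighbours could differ. ACXC ends 40 bases before ACXB and had 29.4 and 27.2 FPKM in tgs1hypo testes, against 98.4 and 97.9 FPKM in WT testes, a ratio of 0.288. ACXE, after ACXA, had 3.40 and 3.35 FPKM in tgs1hypo testes, against 5.01 and 4.61 FPKM in WT testes, a ratio of 0.703. All 4 genes of the row were lower in both tgs1hypo libraries, and the 2 in the middle by the largest factors. ACXD, which lies apart on 3L, had 2.03 and 1.70 FPKM in tgs1hypo testes, against 2.33 and 1.92 FPKM in WT testes, and its groups overlapped.

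**Figure D2:**
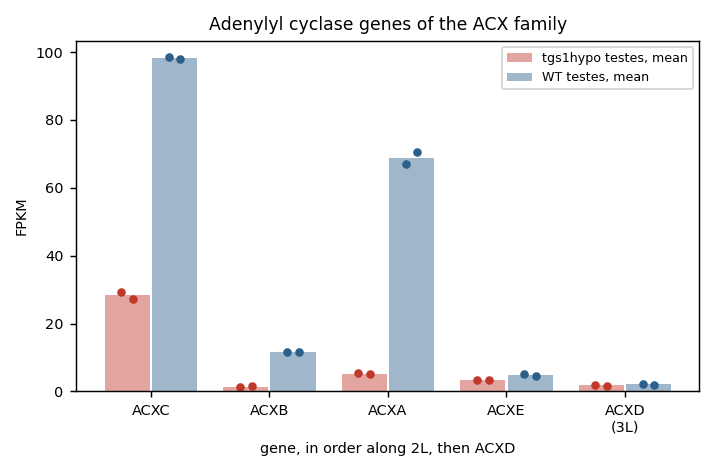
FPKM of the ACX adenylyl cyclase genes in testes. Bars are means, points are the 2 libraries of a group, red is tgs1hypo and blue is WT; ACXB and ACXA are members of the reduced group, while ACXC reached 29.4 and 27.2 FPKM in tgs1hypo testes, against 98.4 and 97.9 FPKM in WT testes.

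Beyond the ACX row, some direct neighbours were reduced too, to differing extents. CG43127, next to CG42521 on the same strand, had 8.27 and 10.4 FPKM in tgs1hypo testes, against 41.3 and 54.5 FPKM in WT testes. CG43393, 104 bases from CG44163, had 2.27 and 2.79 FPKM in tgs1hypo testes, against 10.2 and 11.6 FPKM in WT testes. Each fell short of the limits. CG44163 itself had 8.85 and 7.87 FPKM in tgs1hypo testes, against 64.7 and 64.8 FPKM in WT testes. A noncoding gene with a CR number, 27 bases from CG9500, had 0.391 and 0.379 FPKM in tgs1hypo testes, against 10.4 and 13.4 FPKM in WT testes, and was left out of the group by its name only. CG33287, 149 bases from CG33286 on the same strand, had a ratio of 0.460, against 0.0442 for CG33286 itself.

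Other neighbours went the opposite way. CG43069, 619 bases from CG43070, had 215 and 205 FPKM in tgs1hypo testes, against 127 and 134 FPKM in WT testes. The gene viaf, which overlaps CG6931 on the opposite strand, had 46.3 and 43.9 FPKM in tgs1hypo testes, against 30.6 and 28.9 FPKM in WT testes. CenG1A, whose body overlaps CG33307, had 16.4 and 17.9 FPKM in tgs1hypo testes, against 8.50 and 7.13 FPKM in WT testes. In each of these the lowest tgs1hypo value was above the highest WT value. The neighbours in the group were 161-fold (CG43070), 5.86-fold (CG6931) and 10.2-fold (CG33307) lower.

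Over all 62 flanking genes at 5 FPKM or more in both WT testis libraries, the median ratio of tgs1hypo to WT was 0.956, against 1.12 over the 7469 other background genes. A ratio of 0.5 or less was found in 10 of the 62 (16.1%), against 6.11% of the others, and a ratio of 1 or more in 26 (41.9%), against 61.5%. Among 13 further genes that overlap a member without flanking one, 5 had a ratio of 0.5 or less and 6 a ratio of 1 or more. Flanking and overlapping genes include noncoding genes with a CR number, which the background leaves out, and overlapping genes can share reads with the member. These values come from the contrast that chose the genes and were not tested.

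**Figure D3:**
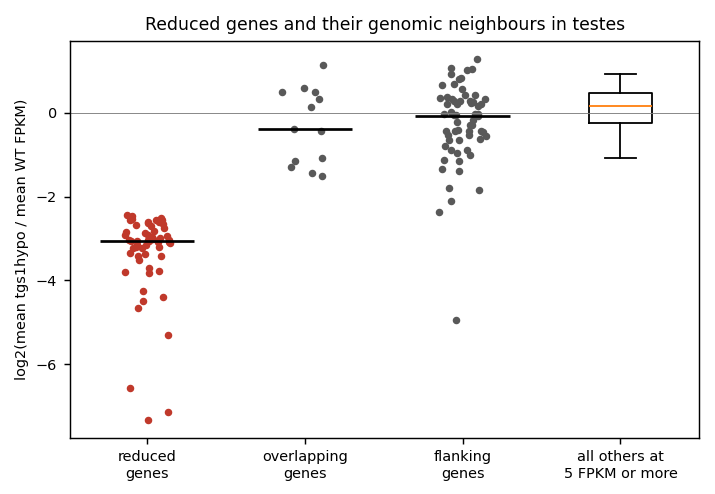
Ratio of the mean level in tgs1hypo testes to that in WT testes, on a log2 scale, for the 56 reduced genes, 13 genes that overlap them, 62 genes that flank them and all other genes at 5 FPKM or more in WT testes. Points are genes, black lines medians, and the box shows the quartiles with whiskers at the 5th and 95th percentiles; the flanking genes centre near a ratio of 0.956 and spread to both sides of 1.

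Most of the genes had little or no RNA in larvae. Of the 56, 52 could be matched to the larval table, 1 of them, CG31600, through its current identifier, and CG33934, CG30268, CG2082 and tio were not matched. In 38 of the 52 (73.1%) all 4 larval values were under 1 FPKM, against 21.8% of the background genes that were matched. CG14069, CG43919, CG31358 and Yu were listed at 0 in all 4 larval libraries. The median of the mean levels was 0.106 FPKM in tgs1 2-3 larvae and 0.146 FPKM in WT larvae, while over the background genes it was 7.26 and 5.75 FPKM in these groups. The testis and larval tables were scaled separately, and whole larvae contain gonads that make up a small part of the body. Genes abundant in testes were among those near 0 in larvae: CG42521 had 0 and 0.137 FPKM in tgs1 2-3 larvae, and was listed at 0 in both WT larval libraries.

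Only 7 of the 52 genes (13.5%) reached 5 FPKM in all 4 larval libraries, against 48.8% of the background genes. These were CG11300, Tsf1, CG9449, CG10512, CG42446, CG6055 and CG33307. Tsf1 had 29.8 and 42.6 FPKM in tgs1 2-3 larvae, against 44.2 and 35.2 FPKM in WT larvae, and the groups overlapped. CG9449 had 54.5 and 34.1 FPKM in tgs1 2-3 larvae, against 57.0 and 48.7 FPKM in WT larvae, and overlapped too. CG10512 had 45.5 and 33.1 FPKM in tgs1 2-3 larvae, against 26.1 and 37.1 FPKM in WT larvae. Its groups again overlapped, so for these genes, each at least 7 times lower in tgs1hypo testes, the larval libraries did not separate.

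**Figure D4:**
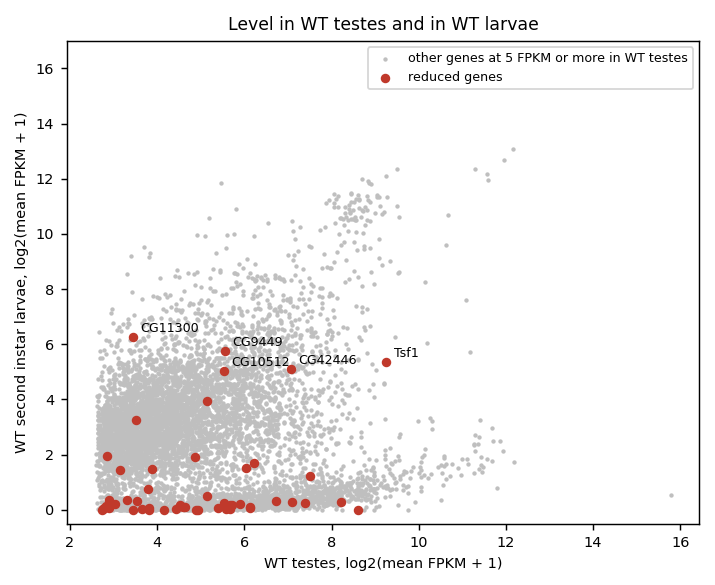
Mean level in WT larvae against mean level in WT testes, both as log2(FPKM + 1), for the reduced genes (red) and the other genes at 5 FPKM or more in WT testes (grey) that were matched to the larval table. Most red points lie at the bottom, with 38 of 52 genes under 1 FPKM in all 4 larval libraries, and the 5 with the highest mean larval level are named.

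The larval libraries played no part in the choice of the genes, so the difference between tgs1 2-3 and WT larvae could be tested. Among the 9545 genes whose larval mean reached 1 FPKM, limma called 0 genes higher (0%) and 0 lower (0%) at an adjusted p under 0.05, the smallest adjusted p being 0.0886, and 742 genes had an unadjusted p under 0.05, 668 higher and 74 lower. This excess of higher genes depended on the scaling: under median-of-ratios scaling 195 were higher and 220 lower, and under quantile normalization 203 were higher and 211 lower. The 14 reduced genes that passed this limit on level included 0 called genes, and 1, CG11300, had an unadjusted p under 0.05. Their median log2 change was 0.12, against 0.25 over all tested genes. Median-of-ratios scaling moved the median of all genes to 0.01 and that of the 14 genes to −0.12, so the sign of the members' median depends on the scaling, while the difference of the medians was −0.13 in both. With 2 libraries a group, a change smaller than the spread between libraries would not be seen, and larger changes could be missed too. Even CG11300, with a log2 change of 3.54 and groups that did not overlap, had an adjusted p of 0.341 by limma. The 0 calls therefore do not show that the larval levels were unchanged.

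CG11300, an intronless gene on 2R without a name of its own, stood apart. It had 577 and 1176 FPKM in tgs1 2-3 larvae, against 47.6 and 103 FPKM in WT larvae. Both mutant values were above both WT values, and library 2 was the higher in each group. Its log2 change was 3.54 ± 0.52 (SE, n = 2 each), with limma's unadjusted p = 0.00108 and adjusted p = 0.341, so the difference did not pass the test over all genes. The adjusted p ran between 0.155 and 0.596 over the alternatives. In testes the same gene had 0.510 and 0.932 FPKM in tgs1hypo testes, against 10.2 and 9.51 FPKM in WT testes. The summed level of 9 fat body markers was 68.3 and 553 FPKM in tgs1 2-3 larvae, against 52.6 and 95.3 FPKM in WT larvae. This sum was highest in the library in which CG11300 was highest, and its groups overlapped. The median log2 change of the fat body markers was 1.95, with 0 of the 6 tested called. The 4 hemocyte markers that were found summed to 38.9 and 16.9 FPKM in tgs1 2-3 larvae, against 5.63 and 5.24 FPKM in WT larvae, with groups that did not overlap, a median log2 change of 1.43 and 0 of 4 called. The 7 gut markers summed to 1993 and 2932 FPKM in tgs1 2-3 larvae, against 2404 and 3792 FPKM in WT larvae, with groups that overlapped, a median log2 change of −0.97 and 0 of 7 called. The part of these lists in the difference of CG11300 was not tested.

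Besides CG11300, in 3 of the 14 genes both tgs1 2-3 values were above both WT values, which makes 4 of 14 where 43.1% of all tested genes had this order. CG42446 had 35.4 and 38.3 FPKM in tgs1 2-3 larvae, against 31.3 and 35.1 FPKM in WT larvae. Lgr1 had 4.27 and 3.54 FPKM in tgs1 2-3 larvae, against 2.30 and 3.44 FPKM in WT larvae. The gene for ttv had 2.53 and 2.50 FPKM in tgs1 2-3 larvae, against 1.48 and 1.91 FPKM in WT larvae. The gaps between the groups were small, and limma's adjusted p was 0.751 for CG42446, 0.596 for Lgr1 and 0.575 for ttv.

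In 2 of the 14 genes both tgs1 2-3 values were below both WT values, an order held by 4.46% of all tested genes. Cpr66Cb had 0 and 0.951 FPKM in tgs1 2-3 larvae, against 2.12 and 1.47 FPKM in WT larvae, a log2 change of −0.99 ± 0.40 (SE, n = 2 each) and an adjusted p of 0.575 by limma. CG7634 had 0.433 and 0.944 FPKM in tgs1 2-3 larvae, against 1.25 and 1.44 FPKM in WT larvae, with a log2 change of −0.49 ± 0.27 and the same adjusted p by limma. Neither passed the test, and both were near the limit on level. The groups overlapped in the other 8 genes.

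**Figure D5:**
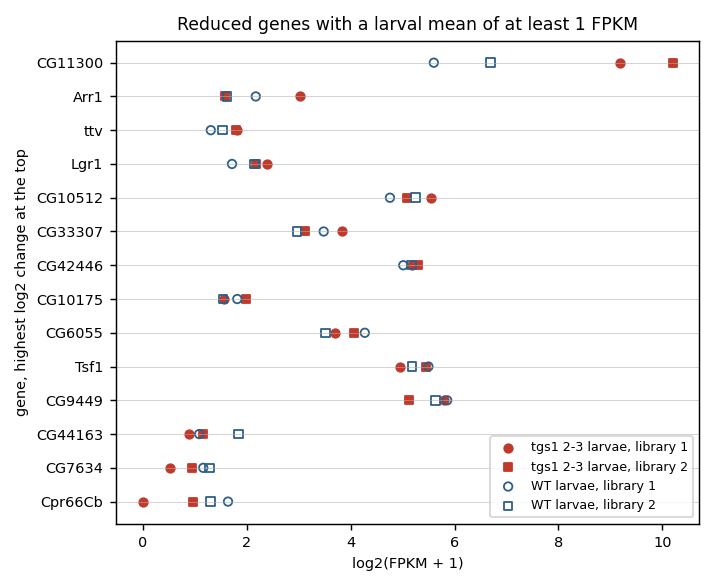
Level of the 14 reduced genes with a larval mean of at least 1 FPKM in each larval library, as log2(FPKM + 1), in order of the log2 change. Filled red symbols are tgs1 2-3 larvae and open blue symbols WT larvae (circle, library 1; square, library 2); the groups lie furthest apart for CG11300 and overlap in 8 of the 14 genes, and 0 genes passed the test.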

How the data were processed

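The authors prepared poly(A) RNA libraries with a kit that does not mark strand, mapped the reads with HISAT2 to the FlyBase genome, and deposited FPKM values for each library in 1 table for testes and 1 for larvae. Their text names count-based tools for expression levels, but the values analysed are not counts, so depth and counting error are unknown. Gene names, positions and introns came from the Ensembl annotation BDGP6.54 (Release 6 coordinates), with testis loci listed 1 base lower. Each tissue was fitted apart with limma 3.58.1 in R 4.3.3 (lmFit, eBayes with a trend) on log2(FPKM + 1), with genes kept where the mean reached 1 FPKM. Calls required an adjusted p (Benjamini-Hochberg) under 0.05 and a log2 change of 1 or more in size. Fold changes on this scale understate the change of low genes; folds in the text are ratios of mean FPKM. Tables were handled in Python 3.11.15 with pandas 2.3.3 and numpy 2.4.6, and plots made with matplotlib 3.10.9. No values listed for tgs1 itself were analysed here.

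The members and the marker lists were chosen with earlier results of these data known. The genes described are those with a name of their own, the 10 with the lowest ratio of means, the 10 with the highest WT testis level, the 5 with the highest larval level, those within 10 kb of another member and 3 on each side of the limit; neighbouring genes and the larval genes whose groups did not overlap were picked after their values were seen. Nothing in the labels says that libraries of a group came from separate crosses, so p-values measure only the spread between these libraries. Alternatives were another pseudocount, filter, scaling or limit, a replicate block, and each library left out.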

Additional observations from a re-analysis of the deposited data

Results flagged for a closer look

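Of the 14 reduced genes tested in larvae, 4 were lower in both tgs1hypo testis libraries and higher in both tgs1 2-3 larval libraries than in the WT libraries of the same tissue. The larval order was held by 43.1% of all genes tested in larvae. The larval log2 changes were 3.54 for CG11300, 0.39 for ttv, 0.35 for Lgr1 and 0.15 for CG42446. Their median over all tested genes was 0.25. The difference between the tissues was not tested, the alleles differ between them, and the testis direction is fixed by the choice of the genes. Under median-of-ratios scaling the larval log2 change of CG11300 was 3.26 and the median over all tested genes 0.01.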

How the results depend on the processing

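The number of reduced genes followed the limits. It was 96 with a limit of 0.25 and 13 with a limit of 0.1 in place of 0.2, and 85 with a WT minimum of 1 FPKM. Median-of-ratios scaling gave 67 genes and rescaling to a common sum gave 64, and both kept all 56. Leaving out 1 testis library gave between 64 and 78. In testes 806 genes were called lower and 402 higher; a filter at a mean of 5 FPKM gave 536 lower. The higher share of the calls was 33.3%, and 22.5% under median-of-ratios scaling, with 282 higher and 970 lower. In larvae 0 genes were called, and 7 were without tgs1 2-3 library 1, so that leaving out 1 larval library gave between 0 and 7; 0 of these were among the reduced genes, and no other alternative but the crossed block gave a call. With the replicate number as a block, 0 larval genes were called, and 812 testis genes lower and 403 higher. Deviations of same-numbered libraries correlated at 0.13 in testes and −0.172 in larvae, so the numbers are not shown to pair the libraries. The crossed replicate block in larvae, chosen after seeing the data, gave 1 call and none of the reduced genes. The difference of the larval medians lay between −0.06 and −0.36 over the left-out libraries. Where the cause of these shifts is not given by the construction, the cause was not tested. Depth is unknown, so values near 0 have no counting limit.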
